A study of Mus musculus with 24 samples.

Results

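NADPH oxidase subunits were followed as 7 genes, Nox4, Cybb, Cyba, Ncf1, Ncf4, Rac1 and Rac2, of 14763 genes tested in mouse hearts. They were chosen by symbol: every probe set annotated to a member was collected, the brightest one stood for the gene, and the others served as a check. Hearts came from FVB/N mice operated at 4 months of age and were removed 8 weeks later. The 6 groups of 4 arrays each were dnPI3K MI, dnPI3K sham, caPI3K MI, caPI3K sham, Ntg MI and Ntg sham. MI is a surgical myocardial infarction and sham is the control operation. dnPI3K mice carry a cardiac-specific transgene that lowers the activity of phosphoinositide 3-kinase (PI3K), caPI3K mice carry a transgene that raises it, and Ntg mice carry no transgene. The promoter that drives either transgene is not given in the labels. Values are Affymetrix signals of whole heart tissue. In such tissue fewer cells of a type and less RNA per cell cannot be told apart.

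NADPH oxidases move electrons from NADPH across a membrane to oxygen and so make superoxide or hydrogen peroxide. The phagocyte enzyme has a catalytic subunit made from Cybb and a membrane partner made from Cyba. Upon activation it is joined by cytosolic subunits, which include the products of Ncf1 and Ncf4, and by a Rac GTPase, mainly Rac2 in blood cells and Rac1 elsewhere. Nox4 encodes another catalytic subunit that pairs with the Cyba product, needs no cytosolic subunit, and is known in cardiomyocytes, endothelial cells and fibroblasts, where TGF-beta induces it.

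The arrays were alike, with pairwise correlations of 0.910 to 0.964 and no 2 arrays identical. Array medians lay between 103 and 119 except on dnPI3K MI replicate 1, at 151. The 8 cardiomyocyte markers, which check the heart label, had summed signals of 298500 to 466001 over the 24 arrays. On 3 of the 4 caPI3K sham arrays Y-linked Eif2s3y was present, above a log2 value of 8, and on 0 arrays of the other 5 groups. Calls of members, and list counts where they differed, are also given below without those 3, which leaves 1 array in that group. Without them 9 genes of all were called after MI in caPI3K hearts, 1070 in the averaged effect, and 234 in dnPI3K against caPI3K sham hearts. Each sample title ends in a number, called the array number here, and the titles do not say what it counts. It was 1410 to 1417 for the 4 caPI3K sham arrays and at most 1191 for all others. Differences from caPI3K sham hearts thus cannot be told apart from a difference between blocks of numbers. Nothing in the labels says that the 4 arrays of a group came from different mice. The p-values below refer to the spread between arrays, which may be technical.

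All 7 members passed the filter on low signal, and their positions are given on GRCm38.p6. Nox4 (chromosome 7, 87244430 to 87398710) has 2 probe sets, Cybb (chromosome X, 9435252 to 9487766) has 3, and Cyba (chromosome 8, 122424771 to 122432940) has 1. Ncf1 (chromosome 5, 134220053 to 134229628) has 3 and Ncf4 (chromosome 15, 78244164 to 78262582) has 1. Rac1 (chromosome 5, 143505481 to 143528031) has 3, of which 2 passed the filter, and Rac2 (chromosome 15, 78559169 to 78572783) has 2. Within groups the log2 values varied least for Rac1, with an SD of 0.0904, and most for Rac2, with an SD of 0.719. The median within-group SD over all genes was 0.267, and it was 0.527 for Nox4, 0.290 for Cybb, 0.222 for Cyba, 0.371 for Ncf1 and 0.416 for Ncf4.

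RefSeq promoter sequences (GRCm38.p6) matched 4 of the 7 members. The 250 bases before 1 annotated start of each are shown, since these members took different patterns over the groups, described below. The Nox4 and Cybb windows lie inside the gene spans given above, so each precedes a start that is not at the outer end of the gene. Capitals mark matches to the motifs searched on both strands: the GC box GGGCGG, the CCAAT box, the AP-1 site TGANTCA and GAGGAA. The last is a form of the site of PU.1, an ETS factor. On the strand printed, a match on the other strand appears as its reverse complement.
Nox4 promoter, GRCm38.p6 chr7:87246399-87246648, plus strand: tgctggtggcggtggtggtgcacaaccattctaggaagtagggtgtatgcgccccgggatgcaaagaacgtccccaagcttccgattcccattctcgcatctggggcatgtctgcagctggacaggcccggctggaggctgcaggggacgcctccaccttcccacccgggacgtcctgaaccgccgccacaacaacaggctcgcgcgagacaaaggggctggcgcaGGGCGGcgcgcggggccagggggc
Cybb promoter, GRCm38.p6 chrX:9469325-9469574, minus strand: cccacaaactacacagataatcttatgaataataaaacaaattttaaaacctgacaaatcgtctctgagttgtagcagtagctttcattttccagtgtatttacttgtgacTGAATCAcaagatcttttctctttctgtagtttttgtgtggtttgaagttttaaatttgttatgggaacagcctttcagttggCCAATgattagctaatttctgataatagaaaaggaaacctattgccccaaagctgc
Cyba promoter, GRCm38.p6 chr8:122432941-122433190, minus strand: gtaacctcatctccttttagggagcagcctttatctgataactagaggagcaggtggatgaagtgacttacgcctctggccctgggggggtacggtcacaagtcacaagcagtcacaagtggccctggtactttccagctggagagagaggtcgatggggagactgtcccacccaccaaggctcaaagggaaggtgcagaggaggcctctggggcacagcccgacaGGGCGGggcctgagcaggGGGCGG
Ncf1 promoter, GRCm38.p6 chr5:134229626-134229875, minus strand: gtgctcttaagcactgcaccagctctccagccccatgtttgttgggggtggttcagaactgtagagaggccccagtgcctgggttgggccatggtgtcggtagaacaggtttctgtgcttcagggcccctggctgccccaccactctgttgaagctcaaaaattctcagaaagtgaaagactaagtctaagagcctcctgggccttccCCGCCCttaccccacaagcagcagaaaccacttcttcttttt
Nox4 held 1 GC box, starting 24 bases before the start, in a window of 67.2% GC. Cyba held 2 GC boxes, at 24 and 6 bases before the start, and Ncf1 held 1 on the opposite strand at 42 bases. Cybb differed in composition, at 34% GC against a median of 52.4% over 32851 promoters. It held a CCAAT box at 56 bases and an AP-1 site at 139 bases before the start. None of the 4 windows held GAGGAA, and other forms of ETS factor sites were not searched. Over all promoters of this length, 32.7% held GGGCGG, 33.8% CCAAT, 6.75% TGANTCA and 23.3% GAGGAA. These matches describe letters in a window and are not measured binding sites.

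Nox4, the catalytic subunit without cytosolic partners, rose after MI in all 3 genotypes, about 2.4-fold to 4.2-fold. Its signals were 443, 896, 812 and 1186 in dnPI3K MI hearts, against 160, 292, 215 and 94.6 in dnPI3K sham hearts. They were 614, 532, 528 and 585 in caPI3K MI hearts, against 328, 182, 248 and 168 in caPI3K sham hearts. They were 626, 561, 562 and 754 in Ntg MI hearts, against 161, 143, 103 and 415 in Ntg sham hearts. In each genotype every MI array lay above every sham array. MI arrays higher than all sham arrays were found for 6.34% of all genes in dnPI3K hearts, 5.09% in caPI3K hearts and 2.22% in Ntg hearts. Ntg sham replicate 4, at 415, was the highest of the 12 sham arrays, and dnPI3K MI replicate 1, at 443, was the lowest of the 12 MI arrays.

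A linear model over all 24 arrays (limma, p-values adjusted by Benjamini-Hochberg over 14763 genes) called a change at an adjusted p below 0.05. Fold changes are on the scale of signal plus a pseudocount of 11.2, which understates changes of dim genes. In dnPI3K hearts the Nox4 change was 2.09 log2 units (SE 0.33, 4.25-fold), with limma adjusted p = 0.000225. In caPI3K hearts it was 1.29 (SE 0.33, 2.45-fold), with limma adjusted p = 0.0470. In Ntg hearts it was 1.74 (SE 0.33, 3.34-fold), with limma adjusted p = 0.00761. Averaged over genotypes, Nox4 rose by 1.71 log2 units (SE 0.19, 3.26-fold, limma adjusted p = 6.27e-07). An exact two-sided permutation test of the 4 against 4 arrays gave p = 0.0286 in each genotype, the smallest that 70 regroupings allow.

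The support differed between genotypes. In dnPI3K hearts and in the averaged effect, Nox4 stayed called under all 36 and all 35 other settings tried. In caPI3K hearts it was called under 13 of 36, with log2 changes of 1.14 to 1.68 and adjusted p up to 0.380. The adjusted p of 0.380, with a change of 1.68, came from leaving out the 3 caPI3K sham arrays with Y-linked signal, which leaves 1 array in that group. Each caPI3K MI array and 3 of the 4 caPI3K sham arrays (replicates 2, 3 and 4) ended the call when left out, and 8 arrays of other groups did so too. In Ntg hearts it was called under 32 of 36 settings, and leaving out Ntg sham replicate 2 or 3 gave adjusted p of 0.0534 and 0.0524. A fit on the compared groups alone gave 0.0602, and leaving out sham arrays 415 to 418, which include Ntg sham replicates 1 and 2, gave the highest adjusted p, 0.399, with a change of 1.52. Without Ntg sham replicate 4, the highest sham array, the Ntg change was 2.13 log2 units.

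The dimmer Nox4 probe set gave changes of like size. Its log2 changes after MI were 2.02 in dnPI3K hearts (limma adjusted p = 0.00934), 1.25 in caPI3K hearts (adjusted p = 0.358) and 1.66 in Ntg hearts (adjusted p = 0.156). Its averaged change was 1.64 (SE 0.26, limma adjusted p = 0.000141). On this probe set the arrays did not overlap in dnPI3K, caPI3K or Ntg hearts either. The closest were 225 in Ntg MI replicate 3 against 176 in Ntg sham replicate 4.

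The MI effect on Nox4 was not shown to differ between genotypes. The dnPI3K minus caPI3K difference of the effect was 0.80 log2 units (95% interval from -0.15 to 1.74, limma adjusted p = 0.590). The dnPI3K minus Ntg difference was 0.35 (from -0.60 to 1.29, adjusted p = 0.911) and the caPI3K minus Ntg difference was -0.45 (from -1.39 to 0.50, adjusted p = 0.966). Group means of log2 values were 9.64 ± 0.59 in dnPI3K MI, 9.17 ± 0.10 in caPI3K MI and 9.30 ± 0.20 in Ntg MI hearts. They were 7.55 ± 0.65 in dnPI3K sham, 7.88 ± 0.42 in caPI3K sham and 7.57 ± 0.82 in Ntg sham hearts (SD, n = 4 each). By level, dnPI3K MI hearts were thus highest, and dnPI3K and Ntg sham hearts lay lowest. The dnPI3K minus Ntg sham difference was -0.01 log2 units here and 0.09 on the dimmer probe set, so their order was not settled. The 3 MI groups overlapped, as did the 3 sham groups, and no pair among them passed the test.

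**Figure D1:**
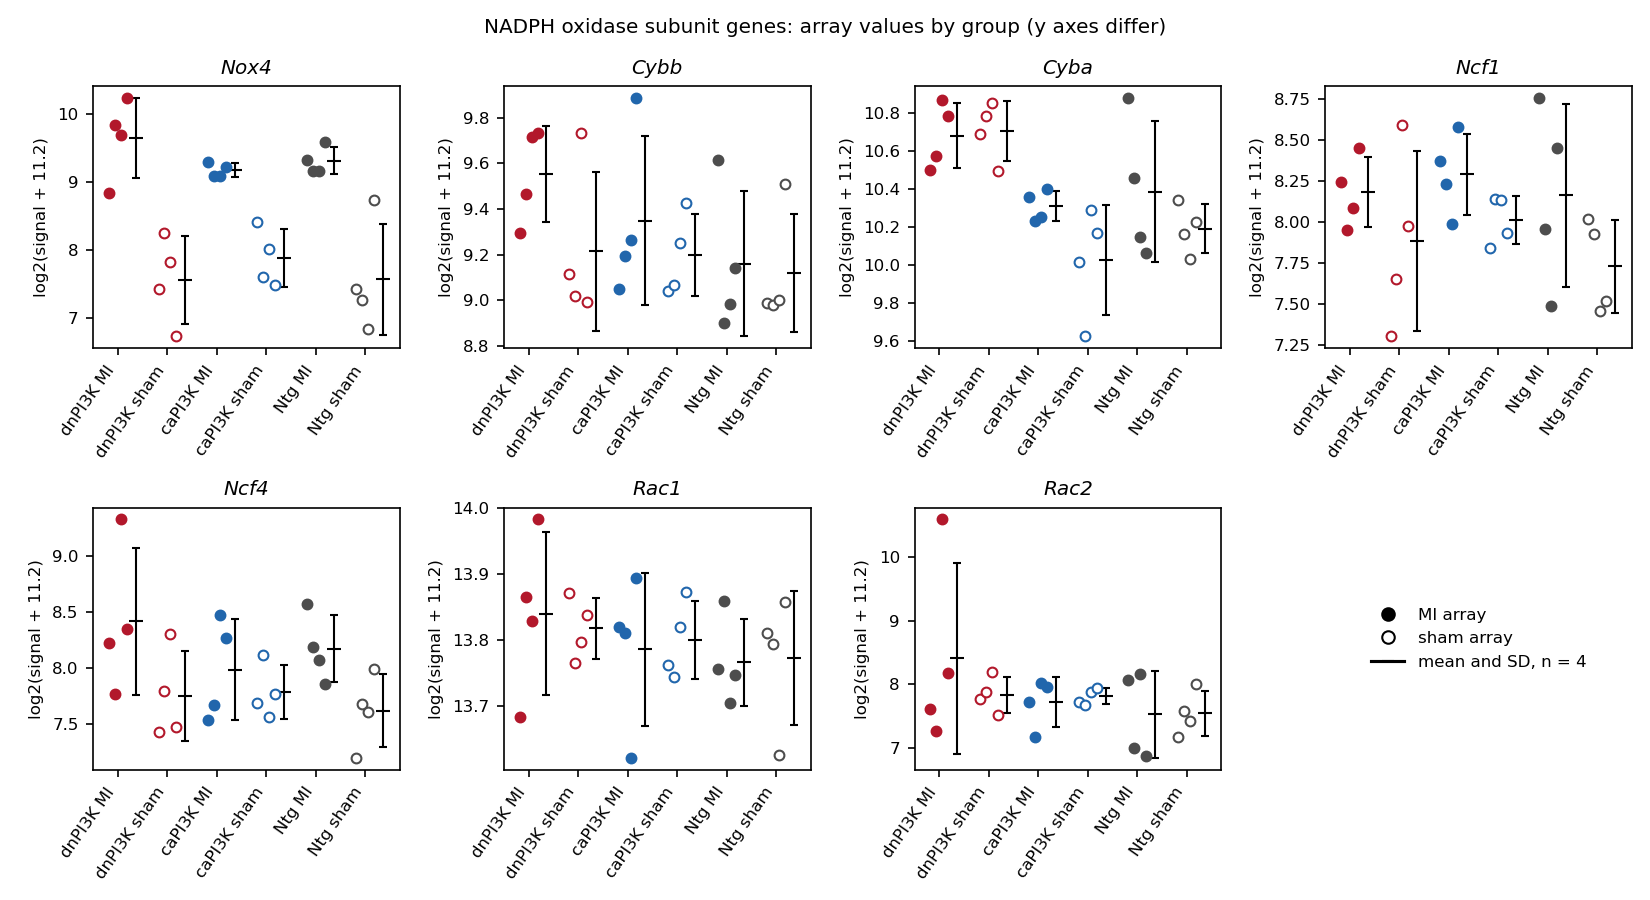
Log2(signal + 11.2) of the 7 genes on each array, by group (filled points MI, open points sham; bars mean and SD of 4 arrays; y axes differ between genes). Nox4 separates MI from sham arrays in all 3 genotypes, Cyba is higher in both dnPI3K groups than in caPI3K sham hearts, and 1 dnPI3K MI array holds the highest Ncf4 and Rac2 values.

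The 5 genes whose log2 values followed Nox4 most closely over the 24 arrays were Itgbl1, Serpinf1, Ltbp3, Entpd2 and Col8a1, with Pearson r of 0.928 to 0.946. Itgbl1 encodes an integrin beta-like protein, Serpinf1 a secreted serpin, Ltbp3 a latent TGF-beta binding protein, Entpd2 an ectonucleotidase and Col8a1 a collagen chain. With the group means taken out, so that MI itself no longer contributes, r was 0.818 for Itgbl1, 0.764 for Serpinf1, 0.778 for Ltbp3, 0.856 for Entpd2 and 0.690 for Col8a1. These 24 points share their arrays and scaling, and r is given as a description. All 5 were called higher after MI in the averaged effect, with adjusted p of at most 0.000210 by limma, as were 6.81% of all genes. The genes were picked on values that include the MI difference of Nox4, so these calls follow from the choice and are no separate result.

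Fibroblast markers moved with Nox4. After MI, 6 of 10 were called higher in dnPI3K hearts, 4 in caPI3K hearts, 5 in Ntg hearts and 9 in the averaged effect, whose list median was 0.89 against -0.0037 over all genes. Without the 3 caPI3K sham arrays with Y-linked signal the counts were 0 in caPI3K hearts and 8 in the averaged effect. Postn, a matrix protein of activated fibroblasts, rose by 1.74 log2 units (SE 0.18) and Pi16 by 1.43 (SE 0.16). Col1a1 rose by 1.19 (SE 0.20) and Col3a1 by 1.13 (SE 0.15). These had limma adjusted p of at most 0.000142. The summed signal of the 10 markers weighs bright probe sets most, here Dcn and Lum (median signals of 37971 and 17638). It was 105593 to 130466 in dnPI3K MI and 74921.5 to 87304.2 in dnPI3K sham hearts. It was 95643.4 to 107276 in caPI3K MI and 65847.1 to 75996.5 in caPI3K sham hearts, and 93602.8 to 111009 in Ntg MI and 58374 to 106683 in Ntg sham hearts. Ntg sham replicate 4, which had the highest sham Nox4, also had that highest sham sum, 106683. With group means out, Nox4 and the marker mean had Pearson r = 0.655 (permutation p = 0.0306, adjusted 0.0714 over 14 relations) and Spearman rho = 0.530 (permutation p = 0.0331). Without the 2 arrays farthest from the median r was 0.359, so the relation rests on them. The part of these cells in the Nox4 change was not tested.

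Cybb, the catalytic subunit of the phagocyte enzyme, did not pass the test in any of the 13 comparisons. Its signals were 617, 696, 830.5 and 841 in dnPI3K MI hearts, against 544, 508, 839 and 497 in dnPI3K sham hearts. They were 518, 574, 603 and 936 in caPI3K MI hearts, against 515, 525, 598 and 677 in caPI3K sham hearts. They were 774, 467, 495 and 553 in Ntg MI hearts, against 496, 494, 500.3 and 717 in Ntg sham hearts. MI and sham arrays overlapped in every genotype. The log2 change was 0.34 in dnPI3K hearts (95% interval from -0.05 to 0.72), 0.15 in caPI3K hearts (from -0.23 to 0.54) and 0.04 in Ntg hearts (from -0.34 to 0.43). The averaged change was 0.18 (SE 0.11, from -0.05 to 0.40, limma adjusted p = 0.340). That upper bound of 0.40 lies below the lower bound of the averaged Nox4 change, 1.32. The 2 other Cybb probe sets gave averaged changes of 0.24 (SE 0.12) and 0.11 (SE 0.14), also not called.

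In MI hearts Cybb was higher in dnPI3K than in Ntg hearts by 0.39 log2 units (from 0.01 to 0.78), with unadjusted p = 0.0459 and limma adjusted p = 0.317. In dnPI3K sham hearts the highest Cybb array was at 839 and the next at 544. The corresponding signals were 936 and 603 in caPI3K MI, 774 and 553 in Ntg MI, and 717 and 500.3 in Ntg sham hearts.

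The 5 genes most like Cybb over the 24 arrays were Cd53, Ctsc, Itgb2, Plek and Laptm5, with Pearson r of 0.806 to 0.852. Cd53 encodes a leukocyte tetraspanin, Ctsc a lysosomal protease, Itgb2 the beta chain of leukocyte integrins, Plek a substrate of protein kinase C in platelets and leukocytes, and Laptm5 a lysosomal protein of blood cells. With group means out, r was 0.827 for Cd53, 0.893 for Ctsc, 0.838 for Itgb2, 0.793 for Plek and 0.842 for Laptm5. Of these, Laptm5 was called higher after MI in the averaged effect (0.54 log2 units, SE 0.12, limma adjusted p = 0.00236), while the others had adjusted p between 0.0570 and 0.518.

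Leukocyte markers were measured as a list of 17 genes, which held Itgb2 and Laptm5 and none of the 7 members. After MI 4 of 17 were called higher in the averaged effect (Laptm5, Cd14, Tyrobp and Lyz2), 1 in dnPI3K hearts, 0 in caPI3K hearts and 0 in Ntg hearts, and 0 were called lower. Without the caPI3K sham arrays with Y-linked signal 1 of 17, Cd14, was called higher in the averaged effect. The list median of the averaged change was 0.37 log2 units against -0.0037 over all genes. No marker was listed at 0. The lowest signal over the 24 arrays was 5396 for Csf1r and 409 for Adgre1, both of macrophages, 7.22 for Itgam of myeloid cells, 16.1 for Cd3e of T cells and 10.4 for Cd79a of B cells. Signals of different probe sets are not comparable as levels. Summed signals weigh bright probe sets most, here Lyz2 and Csf1r (median signals of 8818 and 6810). The sums were 25144.4 to 41611 in dnPI3K MI and 19012.4 to 34030.3 in dnPI3K sham hearts. They were 24349.8 to 34043 in caPI3K MI and 17788.1 to 23053.4 in caPI3K sham hearts, and 22355.8 to 35277.5 in Ntg MI and 17609 to 27756.4 in Ntg sham hearts.

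Array by array, 4 members followed the leukocyte level, by a permutation test adjusted over 14 relations. The share of all genes that would pass the same test was not computed. Whether 4 passing members are more than other genes would give was thus not tested. With group means taken out, Pearson r with the mean of the 17 markers was 0.788 for Cybb, 0.718 for Cyba, 0.704 for Rac2 and 0.659 for Ncf4, over 24 arrays. The permutation p, raw and then adjusted over 14 relations, was 0.00017 and 0.00098 for Cybb, and 5.0e-05 and 0.0007 for Cyba. It was 0.00021 and 0.00098 for Rac2, and 0.00659 and 0.0185 for Ncf4. Spearman rho was 0.601 for Cybb (permutation p = 0.00872), 0.737 for Cyba (0.00021), 0.730 for Rac2 (0.00011) and 0.570 for Ncf4 (0.0175). Without the 2 arrays farthest from the median of the marker level, r was 0.780 for Cybb, 0.634 for Cyba, 0.584 for Rac2 and 0.508 for Ncf4. For Nox4 r was 0.461 (adjusted permutation p = 0.0822), for Ncf1 0.346 (0.241) and for Rac1 0.285 (0.307). Cybb also had r = 0.543 with the fibroblast markers (permutation p = 0.006, adjusted 0.0185), with r = 0.487 without the 2 farthest arrays, but its Spearman rho of 0.347 (permutation p = 0.102) did not pass.

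**Figure D2:**
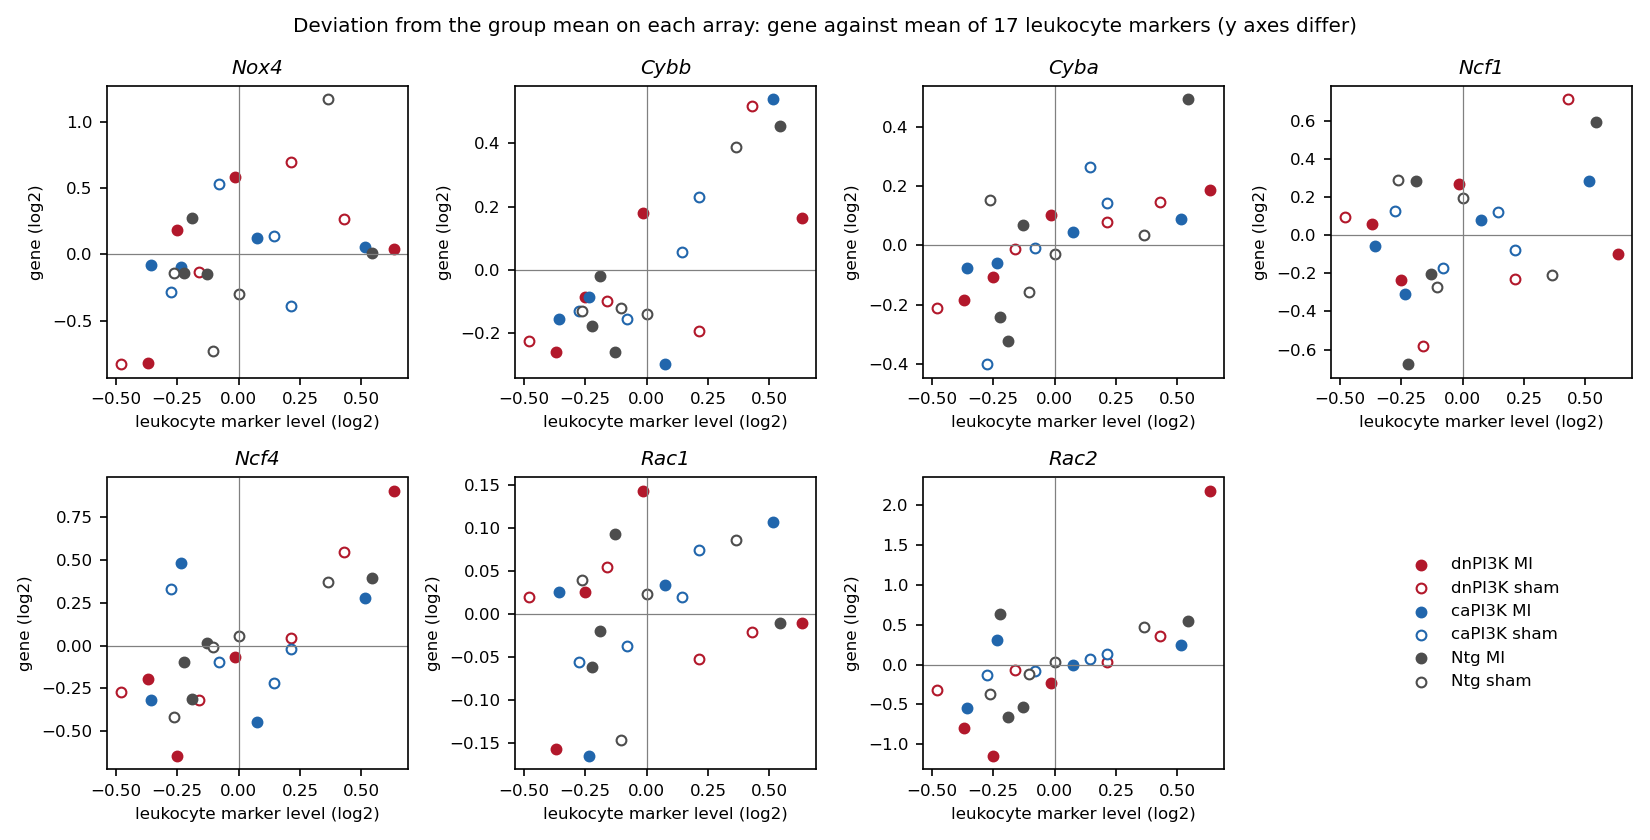
Deviation of each gene from its group mean (y axis, log2 units, scales differ) against the deviation of the mean of 17 leukocyte markers (x axis, log2 units) on the 24 arrays. Cybb, Cyba, Ncf4 and Rac2 run upward with the markers (r of 0.659 to 0.788), and the dnPI3K MI array with the highest marker level holds the highest Rac2 point.

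Cyba, the membrane partner that both catalytic subunits need, passed the test in 1 comparison of genotypes and in no MI effect. Its signals in sham hearts were 1642, 1750, 1837 and 1430 in dnPI3K hearts, against 1025, 778, 1241 and 1140 in caPI3K hearts and 1287, 1133, 1036 and 1186 in Ntg hearts. Every dnPI3K sham array lay above every caPI3K and every Ntg sham array. Of all genes, 7.97% were higher without overlap in dnPI3K than in caPI3K sham hearts, and 2.63% in dnPI3K than in Ntg sham hearts. Cyba was higher in dnPI3K than in caPI3K sham hearts by 0.68 log2 units (SE 0.14, 1.60-fold, limma adjusted p = 0.00221). It was the only member of 7 called in that comparison, in which 9.9% of all genes were called.

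The Cyba call held under 34 of 36 settings. Without the 3 caPI3K sham arrays with Y-linked signal the difference was 0.54 (limma adjusted p = 0.262), with 1 caPI3K sham array left. Without the 4 sham arrays numbered 415 to 418, which are replicates 1 and 2 of the dnPI3K and Ntg sham groups, it was 0.65 (adjusted p = 0.0548). No setting separates caPI3K sham hearts from their own block of numbers, 1410 to 1417. Against Ntg sham hearts, dnPI3K sham hearts were higher by 0.51 (SE 0.14, 1.43-fold) with limma adjusted p = 0.0845, not called. That difference was called in a fit on the compared groups alone (adjusted p = 0.0483) and without Ntg MI replicate 1 (adjusted p = 0.0299). The caPI3K minus Ntg sham difference was -0.17 (from -0.46 to 0.13, adjusted p = 0.730).

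In MI hearts Cyba signals were 1435, 1515, 1855 and 1751 in dnPI3K hearts, against 1299, 1192, 1208 and 1340 in caPI3K hearts and 1871, 1393, 1122 and 1060 in Ntg hearts. The dnPI3K arrays lay above all caPI3K arrays, as 4.33% of all genes did, while Ntg MI replicate 1, at 1871, was the highest of the 24 arrays. The dnPI3K minus caPI3K difference was 0.37 (SE 0.14, limma adjusted p = 0.165), and the dnPI3K minus Ntg difference was 0.29 (SE 0.14, adjusted p = 0.329). MI itself changed Cyba by -0.02 log2 units in dnPI3K hearts (from -0.32 to 0.27), 0.29 in caPI3K hearts (from -0.01 to 0.58) and 0.20 in Ntg hearts (from -0.10 to 0.49), none called. Group means of log2 values were 10.68 ± 0.17 in dnPI3K MI and 10.70 ± 0.16 in dnPI3K sham hearts, 10.31 ± 0.08 in caPI3K MI and 10.03 ± 0.29 in caPI3K sham hearts, and 10.39 ± 0.37 in Ntg MI and 10.19 ± 0.13 in Ntg sham hearts (SD, n = 4 each). By level, both dnPI3K groups were highest and caPI3K sham hearts lowest, and neighbours in the order overlapped.

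Leukocyte markers stood beside the Cyba difference as follows. Their mean log2 level was 9.06, 9.43, 9.65 and 8.74 in dnPI3K sham hearts, against 8.86, 8.66, 9.08 and 9.15 in caPI3K sham hearts, and these groups overlapped. In that comparison 0 of 17 markers were called by limma, and 13 of 17 were positive, with a list median of 0.32 against 0.0018 over all genes. The part of leukocyte RNA in the difference was not tested.

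**Figure D3:**
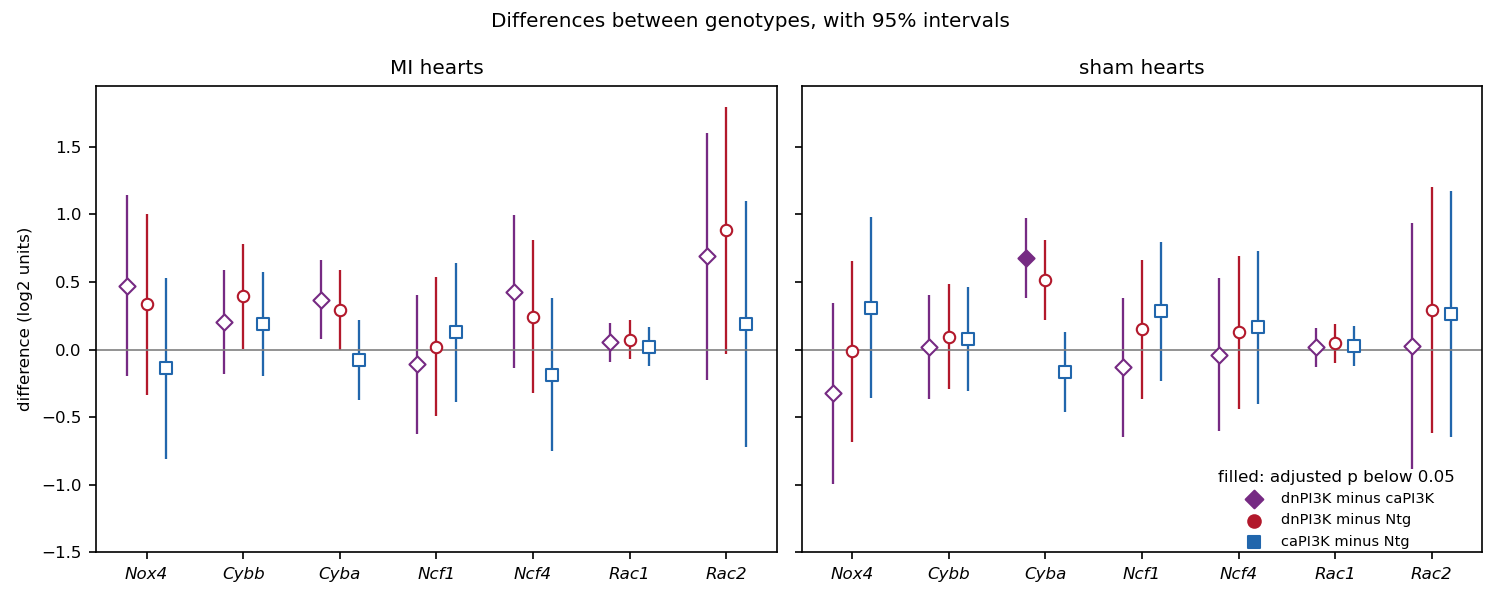
Differences between genotypes in MI hearts (left) and sham hearts (right), in log2 units with 95% intervals from the linear model (filled where the adjusted p was below 0.05). The dnPI3K minus caPI3K difference of Cyba in sham hearts, 0.68, is the only filled point.

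The cytosolic subunits moved less than Nox4. Ncf1 encodes the organiser that carries the activator to the membrane, and Ncf4 encodes a subunit that binds a phosphoinositide made by PI3K family enzymes. Ncf4 rose after MI by 0.47 log2 units in the averaged effect (SE 0.16, 1.39-fold, limma adjusted p = 0.0481), close to the threshold. With Nox4 it made 2 of 7 members called in that comparison, against 13.6% of all genes, and both were higher, as were 6.81% of all genes. In single genotypes 1 of 7 members, Nox4, was called, against 9.37% of all genes in dnPI3K hearts, 1.11% in caPI3K hearts and 0.772% in Ntg hearts.

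Ncf4 signals were 287, 207, 628 and 315 in dnPI3K MI hearts, against 162, 211, 304 and 167 in dnPI3K sham hearts. They were 175, 193, 344 and 297 in caPI3K MI hearts, against 196, 267, 179 and 207 in caPI3K sham hearts. They were 368, 280, 259 and 222 in Ntg MI hearts, against 136, 194, 185 and 244 in Ntg sham hearts. MI and sham arrays overlapped in all 3 genotypes. The changes were 0.66 in dnPI3K (limma adjusted p = 0.144), 0.20 in caPI3K (0.856) and 0.55 in Ntg hearts (0.432). The averaged call held under 12 of 35 settings, with changes of 0.37 to 0.54 and adjusted p up to 0.311. It was lost without any 1 of 16 of the 24 arrays. Without dnPI3K MI replicate 3, which held the highest value, the change was 0.37 (adjusted p = 0.0915). Without the 3 caPI3K sham arrays with Y-linked signal it was 0.48 (adjusted p = 0.179).

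Ncf1 signals lay between 236 and 339 in dnPI3K MI and between 146 and 375 in dnPI3K sham hearts. They lay between 242 and 370 in caPI3K MI and 218 and 270 in caPI3K sham hearts, and between 168 and 421 in Ntg MI and 164 and 248 in Ntg sham hearts. All 3 pairs overlapped. The averaged change after MI was 0.34 (SE 0.14, from 0.04 to 0.63, limma adjusted p = 0.135), not called. It was called when dnPI3K sham replicate 3 (adjusted p = 0.0393) or Ntg MI replicate 3 (adjusted p = 0.0431) was left out. The 2 other Ncf1 probe sets, with mean signals of 105 and 109, gave 0.13 (SE 0.22) and 0.32 (SE 0.31).

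The GTPase genes gave no call in any comparison. Rac1, expressed in most cell types, held signals between 12585 and 16170 over all 24 arrays. Its averaged MI change was 0.00 log2 units with a 95% interval from -0.08 to 0.08 (limma adjusted p = 0.994), the narrowest interval among the members. Its differences between genotypes lay between 0.02 and 0.07, and the second kept Rac1 probe set gave an averaged MI change of 0.02 (SE 0.05). On that probe set the dnPI3K minus caPI3K sham difference was -0.21 (adjusted p = 0.306), of the other sign.

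Rac2, the form of blood cells, was 184, 142, 1534 and 278 in dnPI3K MI hearts, against 206, 224, 282 and 172 in dnPI3K sham hearts. It lay between 133 and 249 in caPI3K MI and 194 and 236 in caPI3K sham hearts, and between 106 and 276 in Ntg MI and 133 and 247 in Ntg sham hearts. Apart from dnPI3K MI replicate 3, at 1534, no array was above 282. The change in dnPI3K hearts was 0.57 (SE 0.44, limma adjusted p = 0.500), and -0.16 without that array (adjusted p = 0.816). That array also had the highest Ncf4 signal, 628, and the highest summed leukocyte signal, 41611. On the other Rac2 probe set, which was dim at 2.56 to 90.3 over all arrays, it read 72.7. Ncf4 and Rac2 correlated over the 24 arrays at r = 0.724, and at 0.783 with group means out, which is a description and includes that array.

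**Figure D4:**
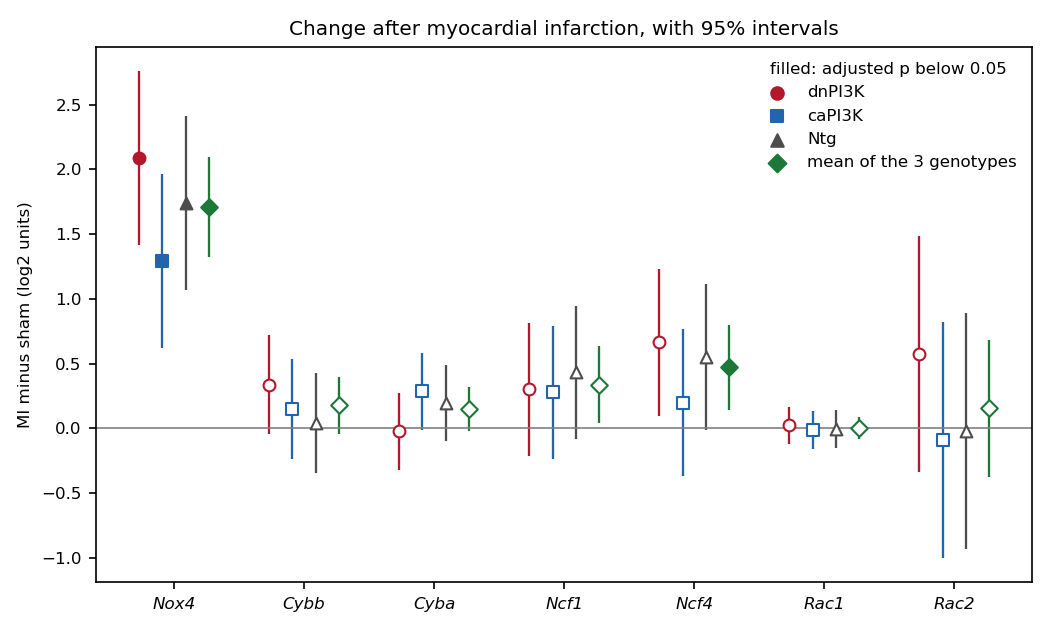
MI minus sham change of each gene in dnPI3K, caPI3K and Ntg hearts and averaged over the 3 genotypes, in log2 units with 95% intervals from the linear model (filled where the adjusted p was below 0.05). Nox4 is filled throughout, from 1.29 to 2.09, Ncf4 only in the averaged effect at 0.47, and Rac1 lies at 0.

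The 3 comparisons of MI effects between genotypes called 0 of 7 members by limma, 0 at an unadjusted p below 0.05, and 0% of all genes. The dnPI3K against Ntg sham comparison called 0 of 7 members (1 at an unadjusted p below 0.05, Cyba) and 1.14% of all genes. The caPI3K against Ntg comparisons called 0 of 7 (0 at an unadjusted p below 0.05), and 0.278% of all genes in sham and 0% in MI hearts. In MI hearts, dnPI3K against Ntg called 0 of 7 (2 unadjusted, Cybb and Cyba) and 2.59% of all genes, and dnPI3K against caPI3K 0 of 7 (1 unadjusted, Cyba) and 4.23%. These comparisons share control arrays, so their values are not independent.

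Other genes of the oxidase family and its control were counted in the averaged effect, in which 13.6% of all genes were called, unless another comparison is named. Of the other oxidase genes 7 were tested and 1 was called. Duoxa1, a maturation factor of the dual oxidases, rose by 0.85 log2 units (SE 0.25, limma adjusted p = 0.0225). Of 15 Rac regulators 1 was called: Tiam1, a Rac exchange factor, rose by 0.68 (SE 0.19, adjusted p = 0.0148). Rap1gds1, another regulator of small GTPases, was called in dnPI3K hearts, at 0.32 (SE 0.10, adjusted p = 0.0496). Without the caPI3K sham arrays with Y-linked signal, which leaves 1 array in that group, Duoxa1 was at 0.56 and Tiam1 at 0.67. Neither was called in that fit, while another of the other oxidase genes was. Of 15 kinases and receptors upstream of the phagocyte enzyme, 1 was higher and 1 lower. Prkcd, a protein kinase C that phosphorylates the Ncf1 product, rose by 0.40 (SE 0.08, adjusted p = 0.000809). Agtr1a, the angiotensin II receptor, fell by 0.40 (SE 0.09, adjusted p = 0.00209). Both were also called without those arrays.

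TGF-beta genes rose with Nox4. In the averaged effect 6 of 9 were called, and 0 were lower: Ltbp2 at 1.78, Tgfb2 at 0.91, Tgfb3 at 0.89, Ccn2 at 0.82, Tgfbr2 at 0.34 and Tgfbr1 at 0.33 log2 units. Tgfb2 and Tgfb3 are ligands, Tgfbr1 and Tgfbr2 the receptors, Ltbp2 a matrix protein related to latent TGF-beta binding proteins, and Ccn2 a matricellular protein that TGF-beta induces. The counts were 6 of 9 in dnPI3K, 3 of 9 in caPI3K and 4 of 9 in Ntg hearts. Without the caPI3K sham arrays with Y-linked signal 1 of 9, Ccn2, was called in caPI3K hearts, and the same 6 in the averaged effect. The list median was 0.34 in the averaged effect. Whether these genes bear on Nox4 was not tested.

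Genes that remove superoxide and peroxide moved both ways. Of 16 tested, 5 were higher after MI: extracellular Sod3 (0.55), and the glutathione peroxidases Gpx7 (0.48), Gpx3 (0.43), Gpx8 (0.34) and Gpx1 (0.30). Another 4 were lower, with mitochondrial Txn2 (-0.21) furthest from 0. The list median was 0.03. Beside them, 5 of 8 cardiomyocyte markers were lower, with Ryr2 at -0.33, Tnni3 at -0.24 and Myh6 at -0.20, while Nppa was higher at 0.84. Without the caPI3K sham arrays with Y-linked signal, 5 of the 16 were higher and 3 lower, and 1 of the 8 cardiomyocyte markers, Tnni3, was lower. The part of cell makeup in these changes was not tested. In single genotypes 4 were higher and 4 lower in dnPI3K hearts, 3 higher and 0 lower in caPI3K hearts (0 higher without those arrays), and 0 in Ntg hearts.

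Nrf2 targets, which answer oxidant stress, were not called in the averaged effect (0 of 7 by limma, list median -0.06), and 1, Txnrd1, was higher after MI in dnPI3K hearts (0.57, SE 0.14, adjusted p = 0.00866). In dnPI3K against caPI3K sham hearts 3 of 7 were lower: Nqo1 at -0.83 (SE 0.15), Srxn1 at -0.78 (SE 0.17) and Txnrd1 at -0.71 (SE 0.14), with limma adjusted p of at most 0.00287. In that comparison, the one in which Cyba was higher, 9.9% of all genes were called. These 3 are named after their values were seen. Without the caPI3K sham arrays with Y-linked signal 0 of 7 were called by limma: Nqo1 was at -0.84 (adjusted p = 0.103), Srxn1 at -0.77 (adjusted p = 0.209) and Txnrd1 at -0.80 (adjusted p = 0.0681).

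**Figure D5:**
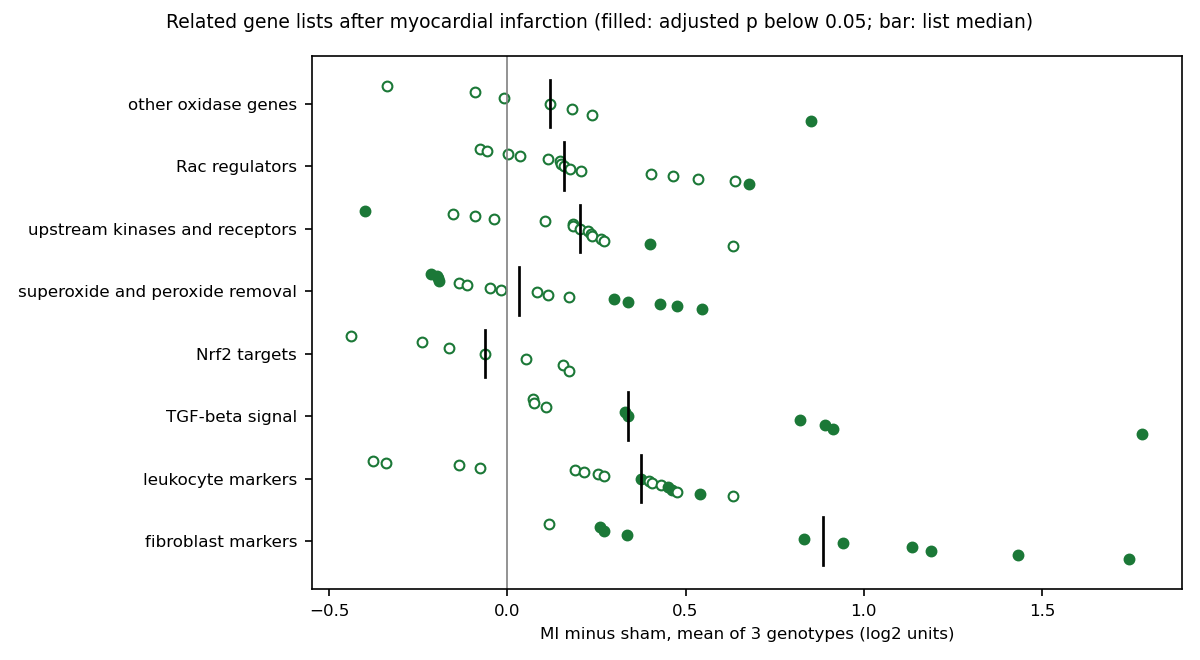
MI minus sham change averaged over the 3 genotypes (log2 units) for the tested genes of 8 related lists, 1 point a gene, filled where the adjusted p was below 0.05, with a bar at each list median. Fibroblast and TGF-beta lists lie to the right of 0 with medians of 0.89 and 0.34, whereas the superoxide and peroxide removal list has called genes on both sides.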

How the data were processed

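Total RNA of mouse hearts was measured on 24 Affymetrix arrays. The deposited values are signal intensities on a linear scale, made with MAS5 per the submitters' processing notes (version and target level: not given in the sources used here). A trimmed mean, without 2% at each end, is the same on all arrays, at 500.003 to 500.004, so arrays share 1 scale and were not normalized again. On the caPI3K MI samples 1 tag name reads sham while the titles and descriptions read MI, and they were taken as MI. Sex is not given in the labels.

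Of 45101 probe sets, 64 controls were left out, 34945 name 1 gene, 932 several and 9160 none in the platform annotation. Probe sets above the 40th percentile of their own array on at least 4 arrays were kept (33061), whichever the group. The brightest per gene left 14763 genes. Values are log2 of the deposited intensity plus 11.2, the median signal divided by 10. The model in limma 3.58.1 (R 4.3.3) had a mean for each of 6 groups, an intensity trend and 18 residual degrees of freedom, and gave 13 comparisons, adjusted by Benjamini-Hochberg. It was also run on simulated data, with independent normal noise for each gene and the same spread in all groups. Such data hold no blocks of array numbers, so that run does not bear on them. Relations with marker levels used 100000 permutations within groups. Figures were drawn with matplotlib 3.10.9. Each group held 4 arrays, which limits the precision.

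Members and gene lists were chosen with earlier results of these data known. All members are named; from each list, up to 6 genes called in an MI effect, largest averaged change first; and the 5 genes most correlated with Nox4 and with Cybb. Nqo1, Srxn1 and Txnrd1 in sham hearts are outside this rule and were named after their values were seen. Alternatives were other pseudocounts, filters, quantile normalization, fits of the compared groups alone, array numbers, no trend, array weights, the mean over probe sets, and leaving out each array.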

Additional observations from a re-analysis of the deposited data

Results flagged for a closer look

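Of 42 groups of 4 arrays (7 genes in 6 groups), 2 held an array far from the others, with a gap to the nearest array, as a share of the group's range, above Dixon's 95% critical value. Chance flags about 1 in 20 such groups. In both it was Cybb in a sham group. Ntg sham replicate 4 had a log2 value of 9.51 (signal 717), with a gap of 0.964 of the range, while the other 3 arrays lay between 494 and 500.3. dnPI3K sham replicate 3 had a log2 value of 9.73 (signal 839), with a gap of 0.8292 of the range. The leukocyte marker mean of these 2 arrays was 9.34 and 9.65, the highest of each group. No difference between genotypes in the MI effect of a member passed the test.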

How the results depend on the processing

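Nox4 kept its direction in every MI effect under all settings tried. The count of members called after MI in Ntg hearts was 0 in a fit on the compared groups alone and without sham arrays 415 to 418, and 0 to 1 when 1 array was left out. In caPI3K hearts it was 0 with a pseudocount of 1, no filter, quantile normalization, no sham arrays 415 to 418, a term for array numbers under 1000, no intensity trend, the mean over probe sets, and no Y-linked arrays, and 0 to 1 with 1 array left out. In the averaged effect it was 1 under the same settings other than the pseudocount, and 1 to 3 with 1 array left out. For dnPI3K against caPI3K sham hearts it was 0 without arrays 415 to 418 and 0 without the Y-linked arrays. For dnPI3K against Ntg sham hearts it was 1 in a fit on the compared groups alone, and 0 to 1 with 1 array left out. Of 3055 alternative values of members not called, 4 were called and 146 had the other sign. The causes were not tested.

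Counts over all genes moved more. With other settings and with 1 array left out, the Ntg count of 114 ran from 9 to 290 and from 25 to 672, the caPI3K count of 164 from 9 to 424 and from 70 to 273, and the dnPI3K count of 1384 from 667 to 1516 and from 843 to 1585. The averaged count of 2004 ran from 994 to 2314 with other settings. In sham hearts the dnPI3K against Ntg count of 169 ran from 41 to 184 and from 79 to 188, the caPI3K against Ntg count of 41 from 0 to 168 and from 10 to 412, and the dnPI3K against caPI3K count of 1461 from 234 to 1782. In MI hearts the dnPI3K against Ntg count of 382 ran from 190 to 473 and from 217 to 493, the dnPI3K against caPI3K count of 625 from 392 to 741 with 1 array left out, and the caPI3K against Ntg count of 0 reached 7 and 9. The dnPI3K minus caPI3K difference of MI effects, with a count of 0, reached 64 and 61; the other differences reached 2. No paired analysis was possible because the titles give each sample its own number and state no pairing between groups.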
